A study of Gallus gallus with 40 samples.

Results

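Fibrinogen is the plasma protein that thrombin cuts to make the fibrin of a blood clot. It is assembled in liver cells from paired alpha, beta and gamma chains, which are encoded by FGA, FGB and FGG, and is then secreted. In mammals it is also an acute phase protein: interleukin 6, acting through STAT3 and C/EBP factors together with glucocorticoids, raises transcription of the chain genes in hepatocytes. The alpha and beta chain genes were followed here in chicken liver. All probes that the platform annotation assigns to FGA or FGB were taken, which gave 2 of 6428 annotated genes and 4 of 10601 annotated spots, on an array of 19200 spots. FGA had 3 probes (BM439635, BG641970 and AW198517) and FGB had 1 (BG641982), each printed as 1 spot. All 4 had enough values to be tested, and each was measured on 38 arrays except BM439635, which was measured on 37. FGB, FGA and FGG follow one another on 1 chromosome with 0 other genes between them in RefSeq's annotation of GRCg7b. It lists 2 transcripts for FGA and 1 each for FGB and FGG, and which of the FGA transcripts a probe reports was not analysed here. FGG, measured by 1 probe (BG641674), is described beside the members because its product is the partner chain.

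The birds came from 2 experimental lines that had been divergently selected on body weight at 8 and 32 weeks of age, a high growth line (HG) and a low growth line (LG), all raised as broilers are. Liver RNA of 1 HG and 1 LG bird of the same age was labelled with Alexa Fluor 555 and Alexa Fluor 647 and hybridised together. Birds of 1 and 3 weeks were compared on 12 such arrays per age, and those of 5, 7, 9 and 11 weeks on 4 per age. Within an age, HG liver carried each dye on the same number of arrays. No treatment or engineered allele was involved. Each line is a single selected population, so line and founder stock cannot be told apart, and the sex of the birds is not given in the sources used here. At 1 and 3 weeks a further round of arrays used 4 of the birds per line again beside 4 new ones, and the arrays that share a bird are not marked. Every array was counted as a separate pair of birds, so p-values may be too small, also at other ages, since the spread is pooled. For many probes the pooling works the other way at 1 and 3 weeks. There the median SD of a probe was 0.15 and 0.14, and the median residual SD of the whole fit was 0.245.

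The values below are log2 ratios turned by dye, so that a positive value means more transcript in HG than in LG liver if the deposited ratio is Alexa Fluor 647 over Alexa Fluor 555. That reading is the likely one, since the labels name the dyes red and green, but the dye of the numerator is not given in the sources used here, and every sign below turns if it was the other. Replicates 3 and 4 at 3 weeks held the same values under opposite dye labels: 99.6% of their 9493 shared spots lay within 0.01 on the log2 scale. Both were left out, which left 38 arrays, and results that change with these arrays are given with them. Of the 38 arrays, 3 ran against the mean of the others (r below -0.15, 2 at 3 weeks and 1 at 5 weeks), and the lowest r between arrays of 1 dye orientation was -0.27. A ratio carries no level, so the tissue could not be checked by how abundant its markers are. In whole liver, fewer hepatocytes and less RNA per hepatocyte cannot be told apart.

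At 7 weeks both chain genes differed between the lines, by about 2.3-fold to 2.6-fold on 3 of the 4 probes. BM439635, for the alpha chain, read 2.17, 0.34, 0.82 and 1.66 on replicates 1 to 4. BG641970, also for FGA, read 1.97, 0.14, 1.08 and 1.54. FGB, the beta chain gene, read 2.53, 1.35, 0.82 and 0.69. All 4 arrays were positive for each of these probes, replicate 1 gave the highest value for all of them, and replicate 2 was the lowest for the FGA probes but not for FGB. Over all probes tested, replicate 1 had r = -0.012 with the mean of the other arrays, against 0.34, 0.25 and 0.32 for replicates 2 to 4. Arrays of 1 dye orientation at 7 weeks had r = 0.13 (HG in Alexa Fluor 555) and 0.21 (HG in Alexa Fluor 647) with each other. Before turning, the deposited FGB ratios were 6.69 and 2.05 on the arrays with HG in Alexa Fluor 647 and 0.453 and 0.716 on those with HG in Alexa Fluor 555. The BM439635 ratios were 4.18 and 1.64 against 0.732 and 0.293, so the raw ratios of these probes fell on opposite sides of 1 in the 2 dye orientations. Those of AW198517 were 1.77 and 1.41 against 1.06 and 0.947.

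The fitted difference at 7 weeks was 1.25 for BM439635 (SE 0.22, 95% interval 0.79 to 1.71, 2.38-fold) with an adjusted p of 4.58e-04 in limma. BG641970 gave 1.18 (SE 0.28, 2.27-fold, adjusted p = 0.0103) and FGB gave 1.35 (SE 0.30, interval 0.75 to 1.95, 2.55-fold, adjusted p = 0.00497). The third FGA probe, AW198517, read 0.77, -0.035, 0.45 and 0.13 on the 4 arrays and did not pass, at 0.33 (SE 0.13, 1.26-fold, adjusted p = 0.21). Thus 3 of 4 probes passed in the positive direction, where 1.31% of all 6432 probes did (2.91% in either direction). All 4 arrays were positive for the same 3 probes, and for 4.14% of the 6286 probes with a value on all 4. These counts are descriptions and not independent support. The members were chosen with earlier results of these data known, and BM439635 and BG641970 report the same gene. Averaged over its 3 probes, FGA differed by 0.92 (SE 0.19, 1.89-fold, adjusted p = 0.00306 over 3181 genes).

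By the median probe, arrays scattered more at 7 weeks than at any other age, while the model pools the spread over ages. The median SD of a probe over the arrays was 0.38 at 7 weeks and 0.36 at 5 weeks. It was 0.22 at both 9 and 11 weeks, and 0.15 and 0.14 in the arrays of 1 and 3 weeks. At 7 weeks the SD was 0.82 for BM439635, 0.78 for BG641970 and 0.84 for FGB. Their residual SDs in the pooled fit were 0.47, 0.59 and 0.63. The SE and intervals given for 7 weeks use the pooled spread, so they may be too narrow for these 3 probes. Fitted on the 4 arrays of 7 weeks alone, none of the 3 probes passed (adjusted p = 0.241 for BM439635, 0.225 for BG641970 and 0.181 for FGB), though the differences were the same size. Scaled to equal spread on every array, they fell short as well, at 0.75, 0.72 and 0.79 (adjusted p = 0.167, 0.68 and 0.392). Weighted by array quality, they were at 1.40, 1.33 and 1.30, and 0 probes of the whole array passed in limma. With replicates 1 to 4 alone at 1 and 3 weeks, BG641970 and FGB missed the threshold (adjusted p = 0.099 and 0.128). If the authors had already turned the ratios to HG and LG, the 3 values would be 0.14, 0.40 and 0.54 and none would pass. Without replicate 1, FGB read 0.94 (adjusted p = 0.0777). BG641970 missed the threshold without replicate 1 or without replicate 4 (adjusted p up to 0.083). BM439635 passed with any 1 of the 4 arrays left out (0.93 to 1.56, adjusted p up to 0.0158).

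**Figure D1:**
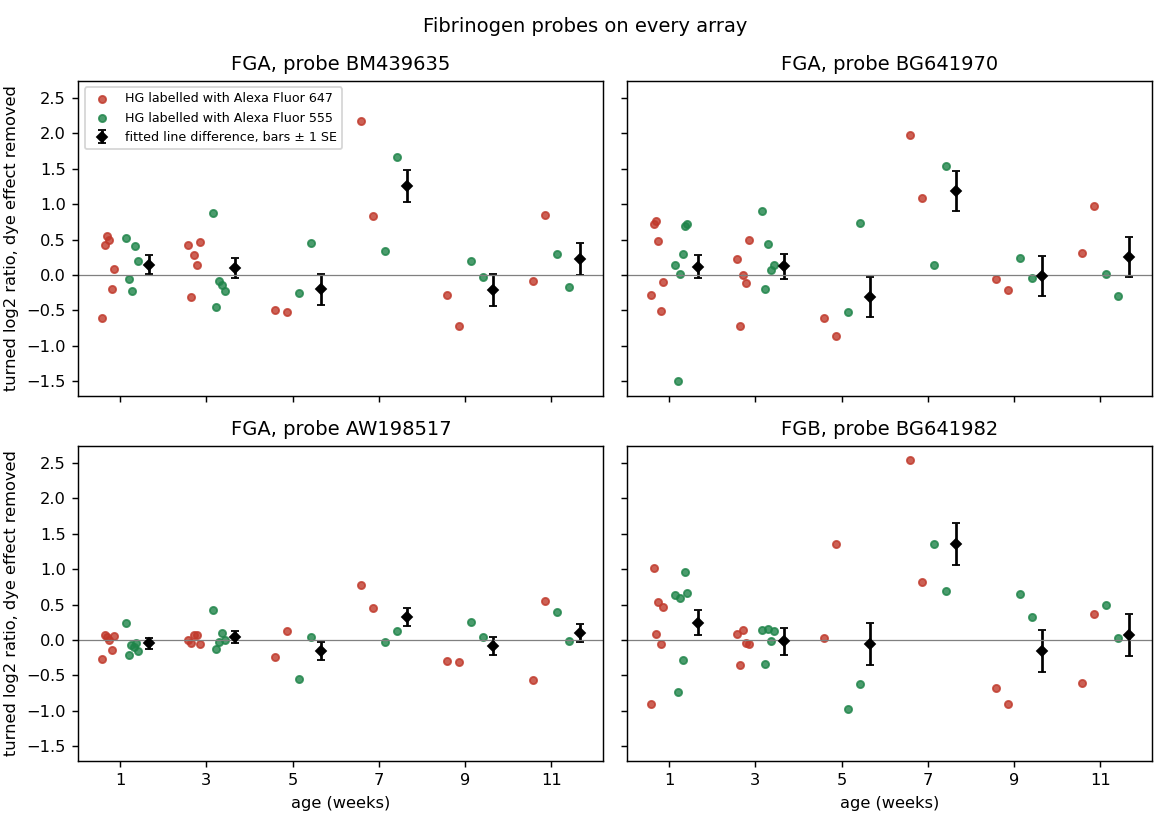
Turned, dye-corrected log2 ratios of the 3 FGA probes and the FGB probe on each of 38 arrays (points, y axis) by age in weeks (x axis). At 7 weeks BM439635, BG641970 and FGB lie above 0 on 4 of 4 arrays, from 0.14 to 2.53, and at every other age the arrays of each probe fall on both sides of 0.

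At the other 5 ages no member passed. The share of all probes called, in either direction, was 0.0155% at 1 week and 0% at 3 weeks. It was 0.777% for birds of 5 weeks, 0.840% for those of 9 weeks and 0.389% for those of 11 weeks. At 3 weeks limma called 0 probes, with 27 of 6432 at an unadjusted p under 0.05, and at 1 week 86 were under it. For the median probe the pooled spread was wider than that of these ages, so differences there may have been missed. The adjusted p of the members ranged from 0.743 to 1.00 over these ages. The 95% intervals of FGB still allowed differences from -0.76 to 0.45 at 9 weeks and from -0.54 to 0.67 at 11 weeks, so differences within those bounds were not excluded for FGB.

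At 1 week BG641970 ranged from -1.50 to 0.76 (median 0.22) over 12 arrays and FGB from -0.90 to 1.01 (median 0.50). BM439635 ranged from -0.61 to 0.55 (median 0.19) over 11 arrays, and AW198517 from -0.27 to 0.24 (median -0.058). The array values of BG641970 and FGB thus spread widely to both sides of 0, those of AW198517 did not, and the fitted means were 0.12 for BG641970, 0.14 for BM439635, -0.048 for AW198517 and 0.25 for FGB. The sample titles do not mark the rounds of arrays, so the 12 replicates were split by number. FGB gave 0.0021 in replicates 1 to 4 and 0.37 in replicates 5 to 12. For BG641970 these sets gave -0.23 and 0.29, so its sign differed between them.

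At 3 weeks FGB and the FGA probe AW198517 varied less over the arrays than the other FGA probes. FGB ranged from -0.35 to 0.16 (median 0.039) over 10 arrays, whereas BM439635 ranged from -0.45 to 0.87 (median 0.032) and BG641970 from -0.71 to 0.90 (median 0.10). AW198517 lay between -0.13 and 0.43 (median 0.0026). The fitted means were 0.096 for BM439635, 0.12 for BG641970, 0.041 for AW198517 and -0.017 for FGB. Replicates 1 and 2 gave 0.65 for BM439635 and replicates 5 to 12 gave -0.042. For FGB those values were 0.11 and -0.049. Replicates 1 and 2 are the 2 arrays at that age that ran against the others (r = -0.22 and -0.18).

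At 5 weeks the alpha and beta chain probes did not keep the same order over the 4 arrays. BM439635 read -0.49, -0.25, -0.52 and 0.45, and BG641970 read -0.60, -0.52, -0.87 and 0.74, so both FGA probes were negative on replicates 1 to 3. FGB read 0.026, -0.97, 1.35 and -0.62, highest on replicate 3, where both FGA probes were lowest. These FGB values were positive with HG in Alexa Fluor 647 and negative with HG in Alexa Fluor 555. The deposited FGB ratios were above 1 on all 4 arrays, at 1.18, 2.27, 2.94 and 1.77, whichever line carried which dye. The shared dye effect did not remove this split. AW198517 read -0.24, -0.55, 0.12 and 0.038 and was, like FGB, lowest on replicate 2 and highest on replicate 3. The fitted means were -0.20, -0.31, -0.054 and -0.16 for BM439635, BG641970, FGB and AW198517. Without replicate 2 or without replicate 4 the FGB mean at 5 weeks turned positive, up to 0.26. Replicate 4 is the array at that age that ran against the others.

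At 9 weeks BM439635 read 0.20, -0.28, -0.034 and -0.72, and BG641970 read 0.24, -0.056, -0.042 and -0.21. FGB read 0.64, -0.68, 0.32 and -0.90. FGB was thus positive on the arrays with HG in Alexa Fluor 555 and negative on those with HG in Alexa Fluor 647, the reverse of 5 weeks. Its deposited ratios were below 1 on 4 of 4 arrays, at 0.740, 0.721, 0.927 and 0.621, whichever line carried which dye. AW198517 showed the same split, at 0.25, -0.30, 0.043 and -0.31. The fitted means were -0.21, -0.017, -0.15 and -0.078 for BM439635, BG641970, FGB and AW198517.

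At 11 weeks BM439635 read 0.30, -0.088, -0.16 and 0.85 and BG641970 read 0.020, 0.31, -0.30 and 0.98. FGB read 0.49, -0.61, 0.028 and 0.36, and AW198517 read 0.40, -0.56, -0.0097 and 0.56. Replicate 4 was the highest for all 3 FGA probes, replicate 1 was the highest for FGB, and no probe had 4 arrays on 1 side. The fitted means were 0.22, 0.25, 0.067 and 0.096.

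The dependence on age was tested directly, in comparisons chosen with earlier results of these data known. The difference at 7 weeks minus the mean of the other 5 ages was 1.24 for BM439635 (SE 0.24, adjusted p = 0.00316), 1.15 for BG641970 (SE 0.30, adjusted p = 0.0406) and 1.33 for FGB (SE 0.32, adjusted p = 0.0224). For AW198517 it was 0.36 (adjusted p = 0.297). The 3 probes passed against 0.700% of all probes in that direction. With all 40 arrays BG641970 no longer passed (1.15, adjusted p = 0.0587), and it was lost in 10 of 38 refits that left out 1 array. FGB was lost without replicate 1 at 7 weeks (0.92, adjusted p = 0.167).

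Between neighbouring ages, the difference rose from 5 to 7 weeks by 1.45 for BM439635 (SE 0.32, adjusted p = 0.0173) and fell by 1.46 from 7 to 9 weeks (SE 0.32, adjusted p = 0.0172). In these comparisons 0.420% and 0.591% of all probes passed. Each of the calls was lost in 4 of 8 refits without 1 array, at 5 weeks replicates 1 and 2, at 9 weeks replicates 2 and 4 and at 7 weeks replicates 1 and 4, with an adjusted p of up to 0.105. BG641970 gave 1.49 and -1.20 (adjusted p = 0.0968 and 0.239) and FGB 1.40 and -1.50 (adjusted p = 0.16 and 0.119), which did not pass. A test of equal differences at all 6 ages passed for BM439635 alone of the members (adjusted p = 0.0446, where 1.54% of probes passed), and it missed the threshold in 28 of 38 refits without 1 array (adjusted p up to 0.29). It gave 0.376 for BG641970, 0.259 for FGB and 0.945 for AW198517.

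Averaged over the 6 ages, no member passed. The mean differences were 0.22 for BM439635 (adjusted p = 0.158), 0.22 for BG641970 (0.274), 0.24 for FGB (0.271) and 0.031 for AW198517 (0.781), where 4.31% of all probes passed. The mean at 5 to 11 weeks minus the mean at 1 and 3 weeks was 0.15, 0.16, 0.19 and 0.051 in the same order, with adjusted p from 0.819 to 0.899, where 1.15% of probes passed. Without the 7-week arrays, an alternative added after the data were seen, this late minus early difference was negative for all 4 probes, from -0.18 to -0.043.

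**Figure D2:**
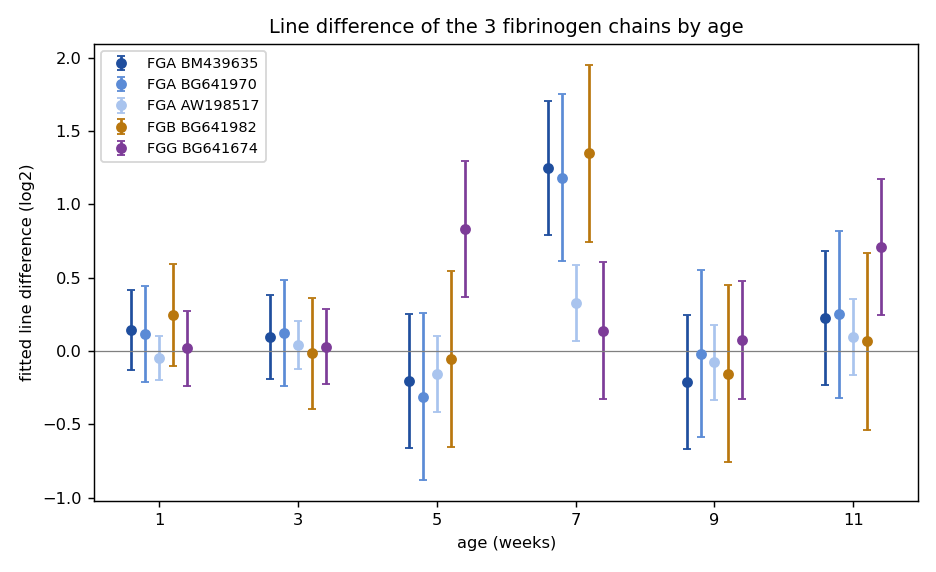
Fitted HG against LG log2 difference (y axis) of FGA, FGB and FGG probes at each age in weeks (x axis), where bars are 95% intervals of the fit. BM439635, BG641970 and FGB peak at 7 weeks, between 1.18 and 1.35, while FGG is at 0.14 there and at 0.83 and 0.71 at 5 and 11 weeks.

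The gamma chain gene had its highest values at other ages. FGG, whose product completes the fibrinogen hexamer, was read on 3 of 4 arrays at 7 weeks, at 1.06, -0.34 and -0.30, and its fitted value was 0.14 (adjusted p = 0.932). It was positive on all 3 arrays with a value at 5 weeks (1.51, 0.63 and 0.35, fitted 0.83, adjusted p = 0.0972) and at 11 weeks (0.89, 0.83 and 0.40, fitted 0.71, adjusted p = 0.40). Neither age passed, but with array weights both did (1.19 at 5 weeks, adjusted p = 0.00603, and 0.83 at 11 weeks, adjusted p = 0.00177). Under these weights 1470 probes passed the test of equal differences, against 99 in the main fit. The share of all probes called at 5 and 11 weeks under them was not analysed here. Scaled to equal spread on every array, FGG read 0.51 at 5 weeks and 0.68 at 11 weeks (adjusted p = 0.9999 and 0.136 in limma). If the ratios were already turned, 5 weeks also passed (0.72, adjusted p = 0.0137). At 1, 3 and 9 weeks the fitted values were 0.018, 0.030 and 0.074. No test of dependence on age passed for FGG in limma. The test of equal differences gave an adjusted p of 0.394. For 7 minus 5 weeks FGG read -0.69 (adjusted p = 0.628), and for 7 weeks minus the other ages -0.19 (0.997). The mean of FGG over ages did pass, at 0.30 (SE 0.079, adjusted p = 0.0221). That call was lost without replicate 3 at 9 weeks (adjusted p = 0.0547), with the replicate number as a block (0.28, adjusted p = 0.16) and if the ratios were already turned (0.19, adjusted p = 0.0629).

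Array by array, the chains were set against each other with exact two-sided sign-flip permutation tests. FGA was entered as the mean of its 3 probes, of which AW198517 was lower at 7 weeks (0.33) than BM439635 (1.25) and BG641970 (1.18). At 7 weeks FGG lay below the mean of FGA and FGB on 3 of 3 arrays, by -1.10 to -1.02, with a mean of -1.07 (exact permutation p = 0.25, the smallest that 3 arrays allow). At 5 weeks it lay above on 3 of 3 arrays, by 0.18 to 1.73, with a mean of 0.78 (exact permutation p = 0.25). FGA minus FGB was -0.43 at 7 weeks and ranged from -1.19 to 0.43, so neither gene was the higher on all 4 arrays (exact permutation p = 0.375, smallest possible 0.125). The largest mean in the other direction was 0.12 at 11 weeks, and over the 6 ages the adjusted exact p of FGA minus FGB ran from 0.562 to 0.875. At 5, 7, 9 and 11 weeks, with 4 arrays each, no such difference could have passed, and at 1 and 3 weeks, with 12 and 10 arrays, the difference of -0.21 and that of 0.10 did not.

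The 3 FGA probes varied together to different degrees. BM439635 exceeded AW198517 on 4 of 4 arrays at 7 weeks, by 0.37 to 1.53 with a mean of 0.92 (exact permutation p = 0.125, the smallest 4 arrays allow). Over the 37 arrays with both, BM439635 correlated with BG641970 at r = 0.886 (0.824 after age means were removed) and shared its sign on 28. Its r with AW198517 was 0.713 and 0.634 within ages, and BG641970 with AW198517 gave 0.571 and 0.430, with the same sign on 25 of 38 arrays. FGB correlated most with AW198517 (r = 0.692, 0.659 within ages, 38 arrays), then with BM439635 (0.635, 0.414 within ages) and BG641970 (0.523, 0.320 within ages). FGB with FGG gave 0.335 over 33 arrays (0.504 within ages), and BG641970 with FGG gave 0.101. All probes on an array share its RNA pair, labelling and normalisation, so these coefficients are descriptions and carry no p.

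**Figure D3:**
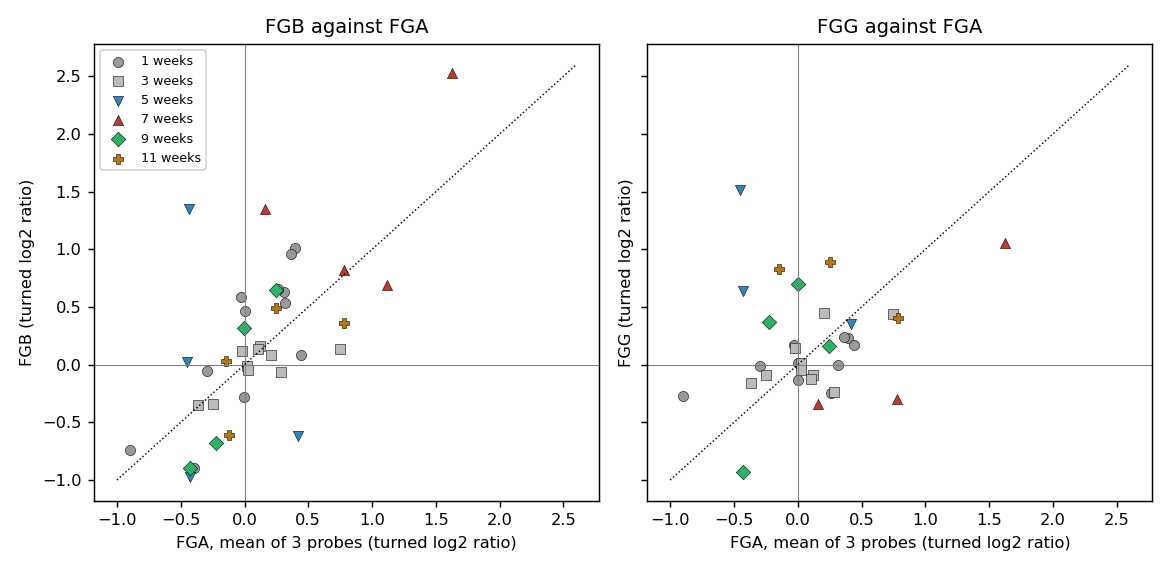
FGB (left, y axis) and FGG (right, y axis) against the mean of the 3 FGA probes (x axis), as turned, dye-corrected log2 ratios, with 1 point per array, marked by age, and a dotted line of equality. The highest FGB value, 2.53, is at 7 weeks, and 3 of 3 arrays of that age lie below the line of equality for FGG.

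FGA and FGB were among the more variable probes. The residual SD was 0.63 for FGB, 0.59 for BG641970 and 0.47 for BM439635, at the 98.7, 97.96 and 94.3 percentiles of all probes tested, where the median was 0.245. AW198517 had a residual SD of 0.26, at the 54.9 percentile, and FGG one of 0.41, at the 89.96 percentile. At 1 week the SD over arrays was 0.66 for BG641970 and 0.63 for FGB, against a median of 0.146 for all probes. At 3 weeks the SD of FGB was 0.19, at the 73.3 percentile, while that of BG641970 stayed at the 97.5 percentile.

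The other genes of clotting that were measured did not pass at 7 weeks. Of 15 haemostasis factors, 4 were measured and 0 passed in either direction (median 0.025, against 0.035 for all genes), where 1.04% of genes passed upwards and 1.45% downwards. For these 4 factors, and for the 2 inhibitors below, 0 calls is near that share. F2, which encodes prothrombin, the precursor of the enzyme that cuts fibrinogen, was at -0.19 (adjusted p = 0.85), and F8, a cofactor of the clotting cascade, was at 0.11. FGG was counted here too. Of 10 clotting inhibitors 2 were measured, A2M at 0.23 and SERPIND1, heparin cofactor II, at -0.19, and 0 passed. A2M was the mean of 4 probes that disagreed: AW198349 passed on its own at 0.74 (adjusted p = 8.06e-05), and the others read 0.28, -0.025 and -0.058. None of these genes as a whole reached an unadjusted p under 0.05 in limma. FGA at 0.92 and FGB at 1.35 were thus above the highest measured haemostasis factor, which was FGG at 0.14.

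Genes that act on fibrin after it forms also did not pass. At 7 weeks 1.04% of all genes passed upwards and 1.45% downwards, so 0 calls in lists this short is near that share. Of 11 fibrinolysis genes 4 were measured, all 4 positive, with a median of 0.16 and 0 passed. Among all 3181 genes 1959 were positive, with a median of 0.035. PLG, the precursor of the fibrin-cutting enzyme plasmin, was at 0.30 (adjusted p = 0.754), S100A10 at 0.14 and ANXA2 at 0.038. Of 14 genes for fibrinogen receptors and cross-linking 5 were measured, with a median of 0.095 and 0 passed, among them FN1 (fibronectin) at 0.13 and the integrin subunits ITGAV at 0.095 and ITGB1 at -0.048. In a separate list of 13 genes, headed fibrinogen domain proteins, 2 were measured and 0 passed. They were FGG, itself a fibrinogen chain gene, and FGL2 (0.17).

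Of 22 genes of the interleukin 6 and glucocorticoid response 4 were measured at 7 weeks and 0 passed. Among all genes 1.04% passed upwards and 1.45% downwards, so 0 calls in 4 genes is near that share. IL6R, a receptor of interleukin 6, was at 0.14 (adjusted p = 0.691), IL1B at -0.23 and the glucocorticoid-responsive FKBP5 at 0.024. CEBPB, a transcription factor that acts on acute phase promoters in mammals, was at -0.37 (adjusted p = 0.0586) as the mean of 2 probes that disagreed. Its probe BI390855 read 0.39 and its probe BI067693 read -1.13 (adjusted p = 0.063 and 5.01e-05), so no direction could be given for CEBPB. IL6ST, STAT3, SERPINC1 and F13B were not analysed here.

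Other acute phase plasma proteins split by direction at 7 weeks. Of 23 listed, 12 were measured, with a median of 0.028. Of these, 4 passed upwards and 1 downwards, where 1.04% of all genes passed upwards and 1.45% downwards. The 4 on the side of FGA and FGB were ORM1 (orosomucoid) at 2.19, CP (ceruloplasmin) at 1.54, AGT (angiotensinogen) at 0.99 and TF (the iron carrier transferrin) at 0.93, with adjusted p from 5.22e-07 to 0.00368. TTR (transthyretin), a carrier of thyroid hormone, passed in the opposite direction at -1.35 (adjusted p = 1.66e-06). C3, the central complement component, was at 0.86 (adjusted p = 0.236), ALB (albumin) at -0.64 (0.117), AHSG (fetuin A) at -0.58 (0.228) and SAA (serum amyloid A) at -0.19 (0.428). FGB (1.35) thus lay below ORM1 and CP, and the mean of the FGA probes (0.92) lay beside AGT and TF. TF also passed at 11 weeks and TTR at 5 weeks, ages at which FGA and FGB did not.

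Of 26 genes for assembling and exporting secreted proteins, 14 were measured, 1 passed upwards and 0 downwards, with a median of 0.099. Among all genes, 1.04% passed upwards and 1.45% downwards. HSPA5, the endoplasmic reticulum chaperone BiP, was at 1.11 (SE 0.20, adjusted p = 4.22e-04), and its 2 probes read 1.62 and 0.60. HSP90B1, another chaperone of that compartment, was at 1.14 (adjusted p = 0.163), SAR1B, a GTPase of secretory vesicles, at -0.63 (0.0913) and XBP1, a transcription factor of the unfolded protein response, at 0.18 (0.236).

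**Figure D4:**
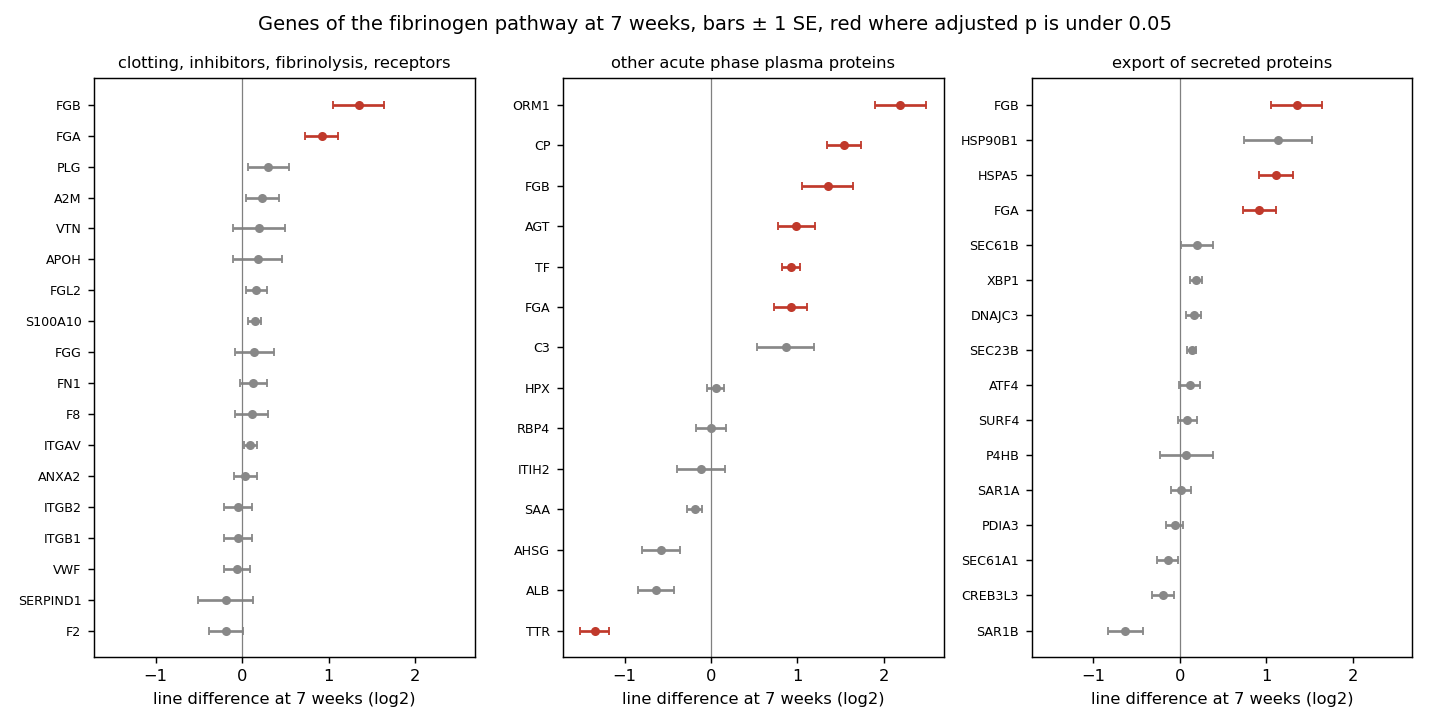
Fitted HG against LG log2 difference at 7 weeks (x axis) of FGA, FGB and each measured gene (y axis) for clotting and fibrin, other acute phase plasma proteins, and export of secreted proteins, with bars of 1 SE and red where the adjusted p was under 0.05. FGA (0.92) and FGB (1.35) lie with ORM1, CP, AGT, TF and HSPA5, and TTR (-1.35) passed in the opposite direction. Of 4 haemostasis factors and 4 fibrinolysis genes 0 passed, where 1.04% of all genes passed upwards and 1.45% downwards.

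Markers of the cells in liver were read beside these differences. At 7 weeks 1.04% of all genes passed upwards and 1.45% downwards. Of 13 hepatocyte markers 11 were measured, 0 passed upwards and 2 downwards at that age, TTR and TAT (tyrosine aminotransferase, -0.86, adjusted p = 0.0421), and the median over the list was -0.18. Array by array the hepatocyte median at 7 weeks ran from -1.14 to 0.28. Of 20 erythroid markers 5 were measured and 1 passed, HBBA (a beta globin, 0.86, adjusted p = 1.13e-05), with array medians from -0.12 to 0.49 and 3 of 4 positive. Leukocyte markers (6 of 20 measured, array medians -0.11 to 0.47), matrix and vessel markers (9 of 15, -0.10 to 0.23) and bile duct markers (2 of 8, -0.14 to 0.43) had 0 calls, and of 13 thrombocyte markers 0 were measured. The part of these cells in the FGA and FGB difference was not tested, and a ratio does not show whether a marker was near 0.

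The probes most like the members were sought among 3855 probes with 1 symbol, by Pearson's r over the arrays with the mean of FGA and FGB. The 5th, 50th and 95th percentiles of r were -0.447, -0.0186 and 0.435. A probe for BF2, a class I histocompatibility gene, came first at r = 0.908 over 38 arrays (0.854 without the 7-week arrays), but the other 5 probes of BF2 ranged from -0.443 to 0.518. A probe for CAT, the peroxide-degrading enzyme catalase, followed at 0.842, and the other CAT probe had 0.352. Next came C8A, a chain of the complement attack complex, at 0.753, C3 at 0.738 (its other probe at 0.401), PNRC1, a nuclear receptor coactivator, at 0.730, TF at 0.715, A2M, a protease inhibitor, at 0.705 (its other 3 probes from 0.201 to 0.657) and CEBPB at 0.696 (its other probe at -0.420). FGG stood at rank 512 with r = 0.319. ORM1 had r = 0.553, which fell to 0.270 without the 7-week arrays, and CP had 0.477, which fell to 0.0669. The r of the highest probes fell too without these arrays. It was then 0.702 for CAT, 0.613 for C8A, 0.618 for C3, 0.642 for PNRC1, 0.430 for TF, 0.697 for A2M and 0.536 for CEBPB. The lowest r were those of TM9SF2L (-0.670), SLIT3 (-0.636), OASL (-0.628) and BCL10 (-0.625). The other TM9SF2L probe had -0.016 and the other 2 OASL probes -0.438 and -0.199.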

How the data were processed

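The deposited values are linear ratios of the 2 dyes, to judge by the values themselves, and the median ratio of an array lay between 0.966 and 1.015. The normalization, scanner, background correction and numerator dye are not given in the sources used here. Log2 was taken, spots of 1 accession were averaged, and the 6432 of 18547 probes measured on 75% or more of the arrays at each age were tested. Lines were compared per probe in limma 3.58.1 (R 4.3.3, lmFit and eBayes), with a line effect per age signed by dye and 1 shared dye effect. The spread was estimated over all ages (median residual degrees of freedom, 31). Tests were two-sided, adjusted by Benjamini-Hochberg within each contrast, with a threshold of 0.05. Array values printed are turned and freed of the dye effect.

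The planned model held all 40 arrays, but 2 copies at 3 weeks carry opposite dye labels, so both were left out. Between 7291 and 13434 of 19200 spots had a value on an array, and the number of arrays limits the precision. Replicate numbers were not taken as pairing arrays: the 58 same-number pairs had a median r of 0.179, against -0.0022 for other pairs, but ranged from -0.355 to 0.569. On simulated data the 7-week test recovered 56% of probes changed by 0.5 and 96% of those changed by 1 on the log2 scale, with 13 false calls. The simulated noise was independent between arrays and had the same spread at all ages for a probe. The real arrays had a median SD of 0.38 at 7 weeks and 0.15 at 1 week, so these shares may be too high for 7 weeks. Symbols are those of the platform annotation and may be out of date. Named genes were all FGA and FGB probes, list members that passed at 7 weeks, up to 3 others per list by p, a fixed set of looked-up genes, and the 8 most and 4 least similar probes. The members, the lists and the contrasts around 7 weeks were chosen with earlier results of these data known. The promoter comparison that was planned was not run.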

Additional observations from a re-analysis of the deposited data

Results flagged for a closer look

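In 6 comparisons the FGA or FGB difference between the lines passed a test of dependence on age. These are not separate support, since all of them use the same arrays of 7 weeks. All but the test of equal differences were contrasts with 7 weeks, chosen with earlier results of these data known. The difference at 7 weeks exceeded the mean of the other ages by 1.24 for the FGA probe BM439635, by 1.15 for the FGA probe BG641970 and by 1.33 for FGB. For BM439635 it also differed between 7 and 5 weeks by 1.45 and between 9 and 7 weeks by -1.46, and its test of equal differences at the 6 ages gave an adjusted p of 0.0446. That F test in limma did not pass for BG641970, FGB or AW198517 (adjusted p = 0.376, 0.26 and 0.945). For BM439635 it missed the threshold in most refits without 1 array. For the FGA probe AW198517 at 3 weeks, 1 of 10 arrays (replicate 1, at 0.43) lay far above the others, with a gap to the next array of 0.579 of the whole range. Without it the mean of that probe was -0.0029. This was 1 of 23 groups of 4 to 10 values examined for FGA, FGB and FGG, and chance alone marks about 1 group in 20. Replicate 1 at 3 weeks was also 1 of the 3 arrays that ran against the others (r = -0.22). It gave the highest values of BM439635 (0.87) and BG641970 (0.90) at that age. The part of this in the outlying value was not tested. The groups of 11 or 12 arrays at 1 week were not examined in this way.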

How the results depend on the processing

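The 3 calls at 7 weeks (BM439635, BG641970 and FGB) kept their direction in every alternative that included the probe. BM439635, with a value on 37 arrays, dropped out where a value was required on every array. The calls depended on the spread and on how the ratio is read, and the causes were not tested. Scaling arrays to the same median absolute deviation gave 0.75, 0.72 and 0.79 at 7 weeks with 29 probes called, and 0.72, 0.65 and 0.74 for 7 weeks minus the other ages with 6 probes called. There BM439635 read 0.89 for 7 minus 5 weeks and -0.90 for 9 minus 7 weeks with 0 probes called in both, its equality p was 1.00 with 26 probes called, and FGB at 5 weeks turned to 5.26e-04. A separate fit per age kept 1.25, 1.18 and 1.35 at 7 weeks, none past the threshold, with 25 probes called.

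Array weights gave 1.40, 1.33 and 1.30 at 7 weeks and 1.41, 1.41 and 1.09 for 7 weeks minus the other ages, with 0 probes called in both. BM439635 then read 1.91 for 7 minus 5 weeks (0 probes called) and -1.32 for 9 minus 7 weeks (3 probes called), 1470 probes passed the equality test, and FGB passed it at 0.0413. Under these weights AW198517 and BM439635 turned to -0.0014 and -0.048 at 3 weeks, FGB to 0.30 at 5 weeks, AW198517, BM439635 and FGB to 0.091, 0.074 and 0.27 at 9 weeks, and BG641970 to -0.067 at 11 weeks.

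If the table already gave HG against LG on every array, BM439635, BG641970 and FGB would read 0.14, 0.40 and 0.54 at 7 weeks, and AW198517 would pass at 0.33, among 2272 probes called. For 7 weeks minus the other ages they would read 0.32, 0.39 and 0.36, none passing, with 1372 probes called. BM439635 would read 0.55 for 7 minus 5 weeks (212 probes called) and -0.54 for 9 minus 7 weeks (1801 probes called), AW198517 would pass there at -0.51, FGB would turn to -0.41 for 7 minus 5 weeks, and the equality p of BM439635 would be 0.694 with 3319 probes called. Signs would also turn for AW198517 (0.058 at 1 week, 0.15 at 5 weeks, -0.049 at 11 weeks), BM439635 (-0.13 at 1 week, -0.0063 at 3 weeks, -0.13 for the mean, -0.086 for late minus early), BG641970 (-0.091 at 3 weeks), FGB (0.18 at 3 weeks, 0.95 at 5 weeks, which would pass) and FGG (-0.23 at 11 weeks).

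With replicates 1 to 4 alone at 1 and 3 weeks, 51 probes were called at 7 weeks, and BG641970 (1.18, adjusted p = 0.099) and FGB (1.35, adjusted p = 0.128) no longer passed. For 7 weeks minus the other ages BM439635, BG641970 and FGB read 1.13, 1.13 and 1.36 with 6 probes called. BM439635 read 1.45 for 7 minus 5 weeks (0 called) and -1.46 for 9 minus 7 weeks (2 called), and its equality p was 1.00 (1 called). BG641970 turned to -0.23 at 1 week, FGB to 0.11 at 3 weeks, and AW198517 and BM439635 to -0.040 and -0.13 for late minus early. With replicates 5 to 12 alone, AW198517 and BM439635 turned to -0.0023 and -0.042 at 3 weeks, and BG641970 passed for 7 minus 5 weeks at 1.49. Without the arrays against their orientation those 3-week values were the same, FGB turned to 0.14 at 5 weeks, BG641970 passed for 7 minus 5 weeks at 1.86, and 73, 60 and 240 probes were called for 7 minus 5 weeks, 9 minus 7 weeks and equality.

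A dye effect per age and round called 435 probes at 7 weeks, 238 for 7 weeks minus the other ages, 163 for 7 minus 5 weeks, 160 for 9 minus 7 weeks and 267 for equality. BG641970 (1.49) and FGB (1.40) then passed for 7 minus 5 weeks, and FGB (-1.50) for 9 minus 7 weeks. Where a value was required on every array, these 5 counts were 111, 49, 13, 21 and 56. In gene means they were 79, 44, 8, 17 and 38, over fewer features. FGA as a gene mean gave 0.039 at 1 week, 0.92 at 7 weeks and 0.92 for 7 weeks minus the other ages, and it missed the threshold for 7 minus 5 weeks (1.14), 9 minus 7 weeks (-1.02) and equality (0.143). The equality p of BM439635 was 0.064 with no dye effect, 0.0709 with all 40 arrays, and 0.0536 and 0.0539 with the copied array kept under the dye label of replicate 3 or 4. With all 40 arrays BG641970 missed the threshold for 7 weeks minus the other ages (1.15), and the label of replicate 4 turned FGB to 0.094 at 3 weeks. Without the 7-week arrays the mean of AW198517 turned to -0.029, and late minus early turned to -0.043, -0.18, -0.15 and -0.16 for AW198517, BM439635, BG641970 and FGB. The alternatives on copied arrays and without 7 weeks were chosen after seeing the data. With the replicate number as a block, 42 probes were called for 7 minus 5 weeks, BG641970 passed there (1.49, adjusted p = 0.0366), and no other FGA or FGB call changed, while the mean of FGG over ages was lost (0.28); 10 of 38 arrays correlated best with an array of their own number.

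Leaving out 1 array at a time gave 0.91 to 1.54 for BG641970 and 0.94 to 1.58 for FGB at 7 weeks, with 129 to 358 probes called, the most without replicate 1 of that age. For 7 weeks minus the other ages the ranges were 0.88 to 1.51 for BG641970 and 0.92 to 1.56 for FGB, with 49 to 147 probes called. For 7 minus 5 weeks they were 1.14 to 1.77 for BM439635, 1.22 to 1.86 for BG641970 and 1.00 to 1.89 for FGB (18 to 88 called), and BG641970 passed without replicate 4 at 5 weeks or replicate 2 at 7 weeks. For 9 minus 7 weeks they were -1.77 to -1.14 for BM439635 and -1.56 to -0.93 for BG641970 (18 to 279 called). The equality p ran from 0.00659 to 0.29 for BM439635 and from 0.0439 to 0.712 for FGB (76 to 261 called). The mean of BM439635 over ages ran from 0.16 to 0.27 and passed without replicate 2 at 7 weeks (adjusted p = 0.0423). Differences that did not pass changed sign in some refits: AW198517 ran from -0.0029 to 0.061 at 3 weeks, -0.19 to 0.0031 at 9 weeks and -0.062 to 0.32 at 11 weeks, and BG641970 from -0.11 to 0.051 at 9 weeks. FGB ran from -0.037 to 0.021 at 3 weeks, -0.54 to 0.26 at 5 weeks, -0.43 to 0.10 at 9 weeks and -0.078 to 0.30 at 11 weeks. FGA minus FGB ran from -0.59 to 0.39 at 5 weeks, -0.092 to 0.21 at 9 weeks and -0.0011 to 0.25 at 11 weeks. FGG minus the mean of FGA and FGB ran from -0.040 to 0.034 at 3 weeks and -0.013 to 0.37 at 9 weeks.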
